A study of Rattus norvegicus with 69 samples.

Results

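Blood gene expression was compared between rats that carried an implanted radio telemetry system and rats that did not, all of them sampled on day 21 of exposure to printer-emitted particles (PEPs). The arrays were chosen by their titles alone: the 4 arrays titled PEP_D21T are the implanted exposed rats and the 6 titled PEP_D21 the exposed rats without an implant, which together are 10 of the 69 blood arrays in the 14 groups of the series, and all probe sets on them were used. All rats were male Sprague-Dawley rats, 9 weeks old by the labels. The exposed rats breathed the particles and gases of 1 laser printer model with the whole body, 5 hours per day for 21 days. The same 2 kinds of rats kept in filtered air (Air_D21T, 4 arrays, and Air_D21, 6 arrays) share no array with the exposed rats and are given beside them. Telemetry is thus the only labelled difference between the 2 exposed groups. The kind of transmitter, the date of surgery, the drugs used for it, and whether rats without a system had a sham operation are not given in the sources used here. The labels say that the whole exposure was carried out more than once but do not give the run of each rat, so the part of the run in these differences was not tested. No label says whether each array comes from its own rat, and the p-values measure only the spread between arrays.

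As background, a telemetry transmitter is placed in the body by surgery and sends measurements such as heart rate or blood pressure from a freely moving animal. Whole blood RNA comes from red cell precursors, platelets and several kinds of white cells. Natural killer (NK) cells and cytotoxic T cells kill target cells with perforin, which opens the target membrane, and granzymes, the serine proteases that enter through it; NK cells are steered by killer cell lectin-like receptors, whose genes lie in a cluster. Naive T cells instead express genes of antigen receptor signalling and survival, such as the interleukin-7 receptor. Monocytes include a patrolling subset that, in mice, depends on the nuclear receptor Nr4a1 and carries the fractalkine receptor Cx3cr1.

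A probe set was said to pass at an adjusted p under 0.05 in limma, a linear model with moderated variances fitted to all 69 arrays, with Benjamini-Hochberg adjustment over the 34176 probe sets tested. Differences are on the log2 scale, implanted minus not implanted, with the standard error (SE) of the fit. They can differ a little from the plain difference of group means because the fit weights the arrays. Of the 34176 probe sets, 418 passed (1.22%), 241 of them higher and 177 lower in the implanted rats. Median size among them was 0.85, and the differences ran from -4.91 to 3.27. The median log2 value of an array was 2.468 to 2.517 in the implanted rats and 2.520 to 2.571 in the others (difference -0.0567, exact permutation test, both sides, p = 0.00952, the smallest that 4 against 6 arrays allow; adjusted p = 0.0381 over 4 such measures). With each array centred on its median, 507 probe sets passed, 389 higher and 118 lower. The 2 groups did not overlap for 283 of the 418, which were picked by the same contrast, so this count is no separate support. Among all 13586 genes tested, all implanted rats lay above all others for 2.25% and below for 1.51%. By gene, 200 of 13586 genes with a probe set of their own passed: 143 higher (1.05%) and 57 lower (0.42%). The count was 99 without array weights and 70 with only these 10 arrays in the fit, and leaving out 1 implanted rat lowered it to 202 without replicate 1 and 232 without replicate 2. As to the blood label, the mean level of 22 platelet genes was 8.59 to 9.31 and that of 29 T cell genes 7.32 to 7.84 over the 10 rats, and levels of different probe sets cannot be set against each other. Hbb, Alas2 and Cd79b have no probe set with 1 symbol and were not analysed here.

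Genes of cytotoxic lymphocytes were higher in the implanted rats. In the list of NK cell and cytotoxic genes, 21 of the 24 measured members were higher in the implanted rats, 13 passed and none passed lower, against 1.05% of all genes passing higher. The median difference of the list was 0.92, against 0.02 over all genes tested. For 15 of the 24, all 4 implanted rats lay above all 6 others, against 2.25% of all genes. The mean level of the 24 members was 5.71 to 6.27 in the implanted rats and 4.79 to 5.35 in the others. In whole blood, more cells of a type and more RNA per cell cannot be told apart.

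Genes of most granule proteins rose. Gzma, the tryptase-like granzyme A, had log2 intensities of 6.07, 6.57, 5.44 and 5.99 in implanted replicates 1 to 4 and 3.44 to 4.89 (median 3.72) in the 6 others. Every implanted rat was above every other rat of the comparison, and the difference was 2.07 ± 0.29 (SE; 4.21-fold; adjusted p = 3.83e-06, limma). Gzmk, granzyme K, lies beside Gzma on chromosome 2 and measured 7.85, 7.83, 7.02 and 6.92 against 5.16 to 6.42 (median 5.51), a rise of 1.82 ± 0.30 (adjusted p = 8.8e-05). Gzmm, granzyme M, measured 6.96, 6.90, 6.50 and 6.01 against 5.29 to 5.94 (median 5.59), again without overlap, and rose by 1.03 ± 0.16 (adjusted p = 5.42e-05). Nkg7, a membrane protein of cytotoxic granules, measured 8.71, 8.96, 7.96 and 8.22 against 6.20 to 7.50 (median 6.83) and rose by 1.60 ± 0.25 (adjusted p = 5.67e-05). The lowest implanted rat for this gene, replicate 3, was still above the highest of the others. Prf1, perforin, rose less, by 0.87 ± 0.18 (adjusted p = 0.00284), with values of 9.06, 9.38, 8.64 and 8.77 against 7.64 to 8.23 (median 8.14). Of the other granzymes measured, Gzmf was at 0.13 ± 0.21 (adjusted p = 0.885), and Gzmb, granzyme B, had a difference of 0.94 ± 0.36 that did not pass (adjusted p = 0.22, unadjusted 95% interval 0.22 to 1.66), and the groups overlapped for both. Granzymes are related genes, and how far probes of one detect another was not tested.

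NK cell receptors made up the second part. Klrc1, which encodes the inhibitory receptor NKG2A, measured 5.73, 5.83, 4.94 and 5.45 against 2.64 to 4.47 (median 3.41), a rise of 1.999 ± 0.27 (4-fold; adjusted p = 2.21e-06). Klrc3, a close relative in the same cluster on chromosome 4, differed by 3.27 ± 0.43 (adjusted p = 1.88e-06). It was near the bottom of the scale in all 6 rats without an implant, at 0.81 to 1.81 (median 1.15), and measured 4.38, 4.90, 3.56 and 5.52 in the implanted rats. Olfactory receptor genes averaged 1.37 to 1.46 in the same 6 rats, so no fold is given for Klrc3. Because Klrc1 and Klrc3 are close paralogs, signal shared between their probe sets cannot be told apart from expression of each. Klrd1, the partner chain CD94 of these receptors, rose by 0.90 ± 0.18 (adjusted p = 0.00248) and Ncr1, the activating receptor NKp46, by 1.30 ± 0.22 (adjusted p = 0.000182), with values of 6.91, 6.79, 6.05 and 6.30 against 4.74 to 5.93 (median 5.06). Tbx21, the transcription factor T-bet of cytotoxic and type 1 lymphocytes, was named after its values were seen and rose by 1.20 ± 0.22 (adjusted p = 0.000744). Also past the threshold in the list, and named after their values were seen, were Klrb1b (1.37), Klrb1a (1.11) and Klrg1 (1.03), further lectin-like receptors. Outside the list and chosen the same way, Klri2 rose by 1.48 ± 0.29 (adjusted p = 0.00176), with 1 of the other rats among the implanted values of 2.89, 4.58, 2.11 and 1.60, and Klre1 by 0.73 ± 0.15 (adjusted p = 0.00235). Kir3dl1, a receptor of the immunoglobulin-like family of NK receptors, rose by 1.002 ± 0.25 (adjusted p = 0.0248), with overlap. Itga1, the collagen-binding integrin chain, rose by 1.31 ± 0.19 (adjusted p = 7.61e-06), and Serpinb9, an inhibitor of granzyme B, by 0.77 ± 0.13 (adjusted p = 0.000105). Kir3dl1, Itga1 and Serpinb9 were also chosen after their values were seen. Some of these genes were low in the 6 rats without an implant. Klre1 measured 1.04 to 1.305 there, Itga1 1.67 to 2.03, Klri2 0.73 to 2.71 and Kir3dl1 1.44 to 3.20. Their rises thus start at or near the level of the olfactory receptor genes, as that of Klrc3 does. Members of the list that did not pass included Klrk1, the receptor NKG2D, at -0.31 (adjusted p = 0.33), Cd160 at -0.49 (adjusted p = 0.45) and Ctsw, a protease of the same granules, at 0.11 (adjusted p = 0.87).

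**Figure D1:**
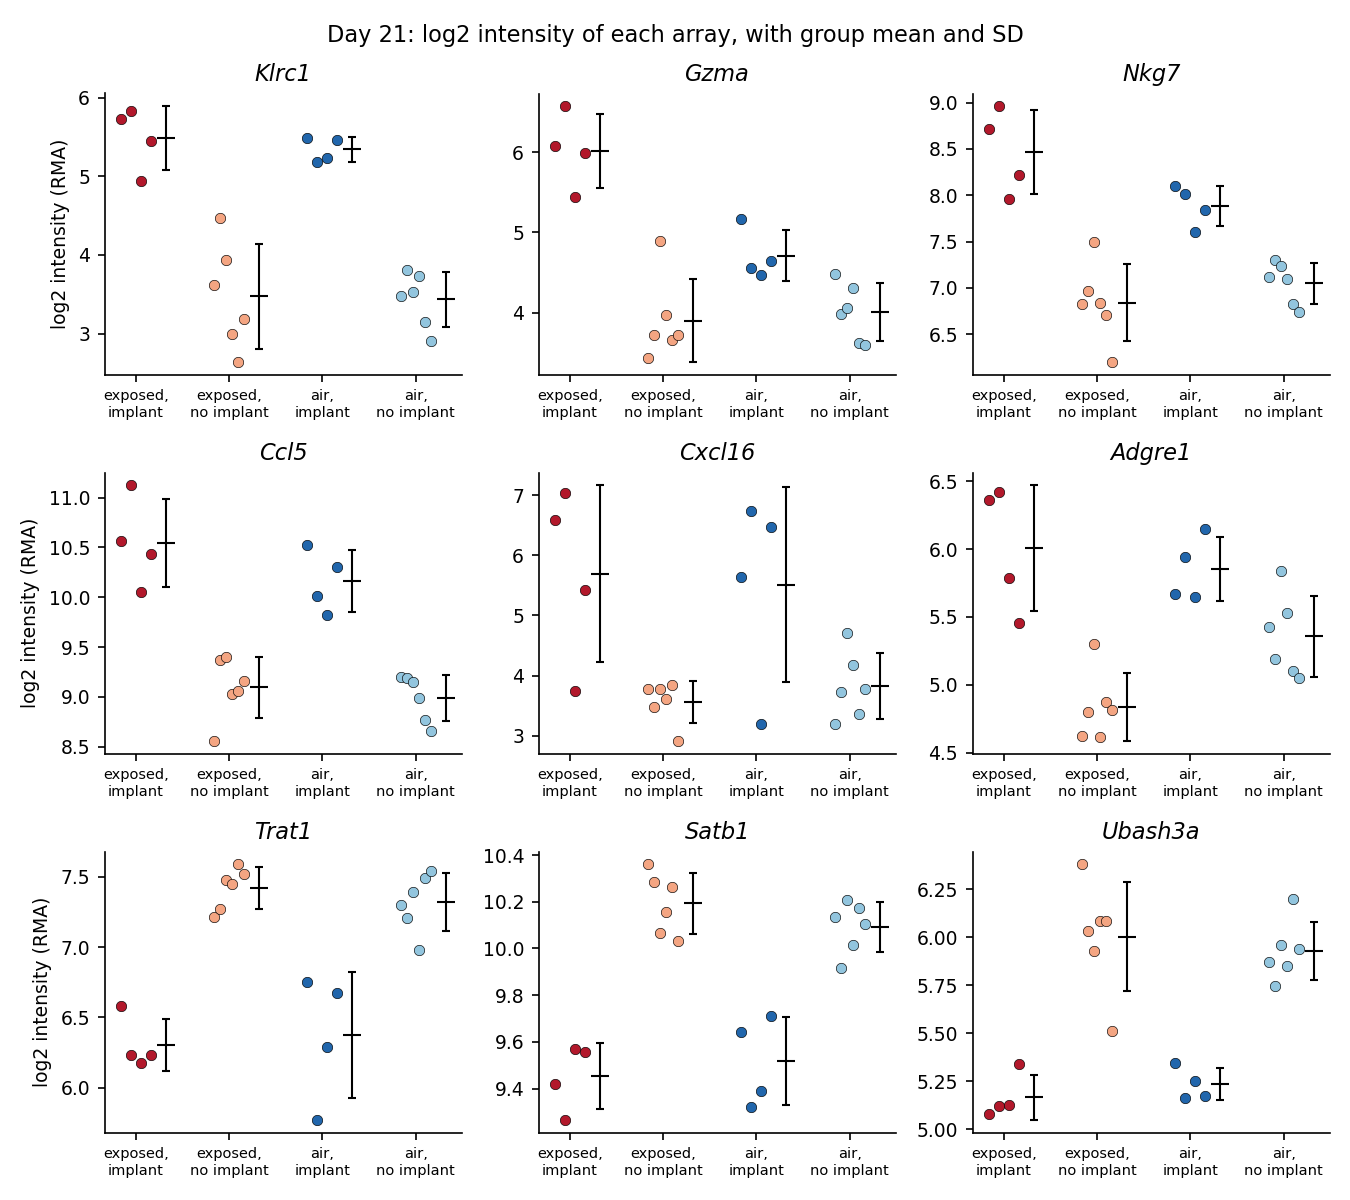
Log2 intensity (RMA) of 9 genes on each array of day 21. Points are arrays, coloured by group (4 implanted and 6 other rats in each arm), and the bars to their right are the group mean and SD. Klrc1, Gzma, Nkg7, Ccl5 and Adgre1 lie higher in all 4 implanted exposed rats than in the 6 others, Trat1, Satb1 and Ubash3a lie lower, and Cxcl16 is at the level of the others in implanted replicate 3.

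Promoters of the genes that moved together are shown for the 4 cytotoxic genes with the largest rises that have an entry in the RefSeq promoter table. They are given as the 250 bases before the start of transcription in build GRCr8. Trat1 and Cd28, a pair of T cell genes that fell, are shown too. Both are among those that held both motifs marked below, and they are not the pair with the largest falls. Each is written 5′ to 3′ along the gene. Capitals mark the RUNX core TGTGGT (or its reverse ACCACA) and the T-box core TCACAC (or its reverse GTGTGA), motifs of the RUNX and T-box families of transcription factors. A match is a run of letters and no measured binding site.
Gzma, chr2:46485697-46485946, minus strand: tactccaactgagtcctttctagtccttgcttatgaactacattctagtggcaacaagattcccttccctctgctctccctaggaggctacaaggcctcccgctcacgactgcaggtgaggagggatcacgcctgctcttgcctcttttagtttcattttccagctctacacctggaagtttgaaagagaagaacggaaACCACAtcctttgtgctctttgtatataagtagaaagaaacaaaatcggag
Gzmk, chr2:46582016-46582265, minus strand: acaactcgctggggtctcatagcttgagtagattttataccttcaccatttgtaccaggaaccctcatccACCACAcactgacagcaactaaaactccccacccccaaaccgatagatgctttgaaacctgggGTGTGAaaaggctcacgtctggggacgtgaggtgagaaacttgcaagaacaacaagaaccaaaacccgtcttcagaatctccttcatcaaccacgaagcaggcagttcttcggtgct
Nkg7, chr1:102981247-102981496, plus strand: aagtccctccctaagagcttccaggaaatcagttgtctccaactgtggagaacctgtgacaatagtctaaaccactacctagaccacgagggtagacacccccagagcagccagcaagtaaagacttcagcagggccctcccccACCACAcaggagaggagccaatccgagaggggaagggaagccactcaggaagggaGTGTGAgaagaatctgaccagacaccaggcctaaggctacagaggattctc
Klrc1, chr4:164838447-164838696, minus strand: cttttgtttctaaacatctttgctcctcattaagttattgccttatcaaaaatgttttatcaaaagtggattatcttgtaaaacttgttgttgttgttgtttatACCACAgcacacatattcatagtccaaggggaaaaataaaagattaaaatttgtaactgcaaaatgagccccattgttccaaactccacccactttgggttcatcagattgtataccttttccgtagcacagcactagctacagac
Trat1, chr11:65498492-65498741, plus strand: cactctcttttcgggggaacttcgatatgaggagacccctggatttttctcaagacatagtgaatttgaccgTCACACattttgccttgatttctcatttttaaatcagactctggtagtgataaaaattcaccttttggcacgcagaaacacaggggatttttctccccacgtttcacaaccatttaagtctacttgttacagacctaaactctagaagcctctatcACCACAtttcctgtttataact
Cd28, chr9:69660066-69660315, plus strand: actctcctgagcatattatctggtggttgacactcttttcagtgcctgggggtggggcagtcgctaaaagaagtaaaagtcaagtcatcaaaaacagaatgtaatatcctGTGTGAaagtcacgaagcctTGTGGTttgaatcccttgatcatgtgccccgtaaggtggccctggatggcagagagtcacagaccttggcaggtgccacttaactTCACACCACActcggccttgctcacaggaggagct
Of the 13 cytotoxic genes that passed, 9 had an entry, of which 6 (Gzma, Gzmk, Gzmm, Klrc1, Nkg7 and Prf1) held the RUNX core and 5 (Gzmk, Gzmm, Klrb1a, Klrb1b and Nkg7) the T-box core. Over all 33469 promoters of the table, 14.5% held the first and 11.6% the second. Of the 8 T cell genes that fell, 7 had an entry and 3 (Cd28, Il7r and Trat1) held both motifs, so some genes of either direction carried them. Ubash3a and Satb1, which fell more than Cd28, had an entry and held neither. In Cd28 a copy of each overlaps. With so few promoters these are counts only.

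Several chemokine genes were among those that passed, and they are described together without being a list of their own. Ccl5, which draws T cells, NK cells and monocytes, measured 10.56, 11.12, 10.05 and 10.44 against 8.56 to 9.40 (median 9.11) and rose by 1.40 ± 0.19 (2.65-fold; adjusted p = 2.21e-06). Ccl4 rose by 1.49 ± 0.25 (adjusted p = 0.000143) and Ccl3 by 1.05 ± 0.19 (adjusted p = 0.000726), and for both of these chemokines all implanted rats lay above all others. Xcl1, a chemokine on the cytotoxic list, did not pass, at 0.73 ± 0.23 (adjusted p = 0.103). Cxcl16 measured 6.58, 7.04, 3.75 and 5.42 against 2.91 to 3.85 (median 3.69). Its rise of 2.10 ± 0.40 (adjusted p = 0.00124) was carried by 3 of the 4 implanted rats, while replicate 3 lay among the others. Cxcr6, the receptor of Cxcl16, named after its values were seen, measured 6.32, 6.65, 5.27 and 6.34 against 4.19 to 5.17 (median 4.71) and rose by 1.40 ± 0.27 (adjusted p = 0.00119), with replicate 3 the lowest of the implanted rats but above all others. Il18, a cytokine that activates NK cells, rose by 0.91 ± 0.17 (adjusted p = 0.000659) at low levels of 3.78, 3.31, 3.14 and 3.83 against 2.35 to 2.95 (median 2.54). Of the 26 measured genes of NF-kB and acute inflammation, Ccl3, Ccl4 and Il18 were the 3 that passed, against 1.05% of all genes passing higher. The median of the list was 0.12.

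The genes of T cells shifted the other way and by less. Of 29 measured members of the T cell list, 25 were lower, 8 passed lower and none higher, against 0.42% of all genes passing lower. The median difference was -0.37. For 13 members all implanted rats lay below all others, against 1.51% of all genes, and the mean level of the list was 7.32 to 7.42 in the implanted rats against 7.54 to 7.84. Trat1, an adaptor that stabilises the T cell receptor at the surface, measured 6.58, 6.23, 6.17 and 6.23 against 7.22 to 7.59 (median 7.46) and fell by 1.11 ± 0.17 (adjusted p = 2.38e-05). Ubash3a, a phosphatase-like brake on T cell receptor signalling, measured 5.08, 5.12, 5.13 and 5.34 against 5.51 to 6.38 (median 6.06) and fell by 0.85 ± 0.14 (adjusted p = 6.7e-05). Both drops left no overlap between the groups. Satb1, a chromatin organiser of developing and naive T cells, measured 9.42, 9.27, 9.57 and 9.56 against 10.03 to 10.36 (median 10.21) and fell by 0.74 ± 0.13 (adjusted p = 0.00041). Cd28, the costimulatory receptor, had a difference of -0.55 ± 0.13 (adjusted p = 0.0165). The others that passed, named after their values were seen, were Il7r (-0.67), Themis (-0.63), Skap1 (-0.62) and Gata3 (-0.48), which encode the interleukin-7 receptor, 2 proteins of T cell receptor signalling and a transcription factor of T cell development. Outside the list, Tox and Ly9, also lymphocyte genes and chosen after their values were seen, fell by 0.83 ± 0.14 and 0.65 ± 0.14.

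Chains of the T cell receptor complex and the coreceptors did not pass. Cd3e, a chain of the T cell receptor complex, had a difference of -0.28 ± 0.12 (unadjusted 95% interval -0.53 to -0.03), Cd3d one of -0.32 ± 0.18 (-0.68 to 0.05) and Lck, the first kinase of the receptor, one of -0.10 ± 0.13 (-0.35 to 0.16). Cd4 (0.18 ± 0.15) and Cd8a (0.07 ± 0.16) had differences above 0 without passing. Cd3g, another chain, was at -0.50 ± 0.17 (adjusted p = 0.143) with all implanted rats below all others, a difference of the size of that of Gata3, which passed. The 8 calls also depend on the fit: 5 members passed with arrays centred on the median, 3 without array weights, 4 without implanted replicate 1, and 5 each without implanted replicate 2 or 3 and without PEP_D21 replicate 2 or 5. None of the 15 measured B cell genes passed, where 1.05% of all genes passed higher and 0.42% lower. The median difference of the B cell list was -0.06.

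**Figure D2:**
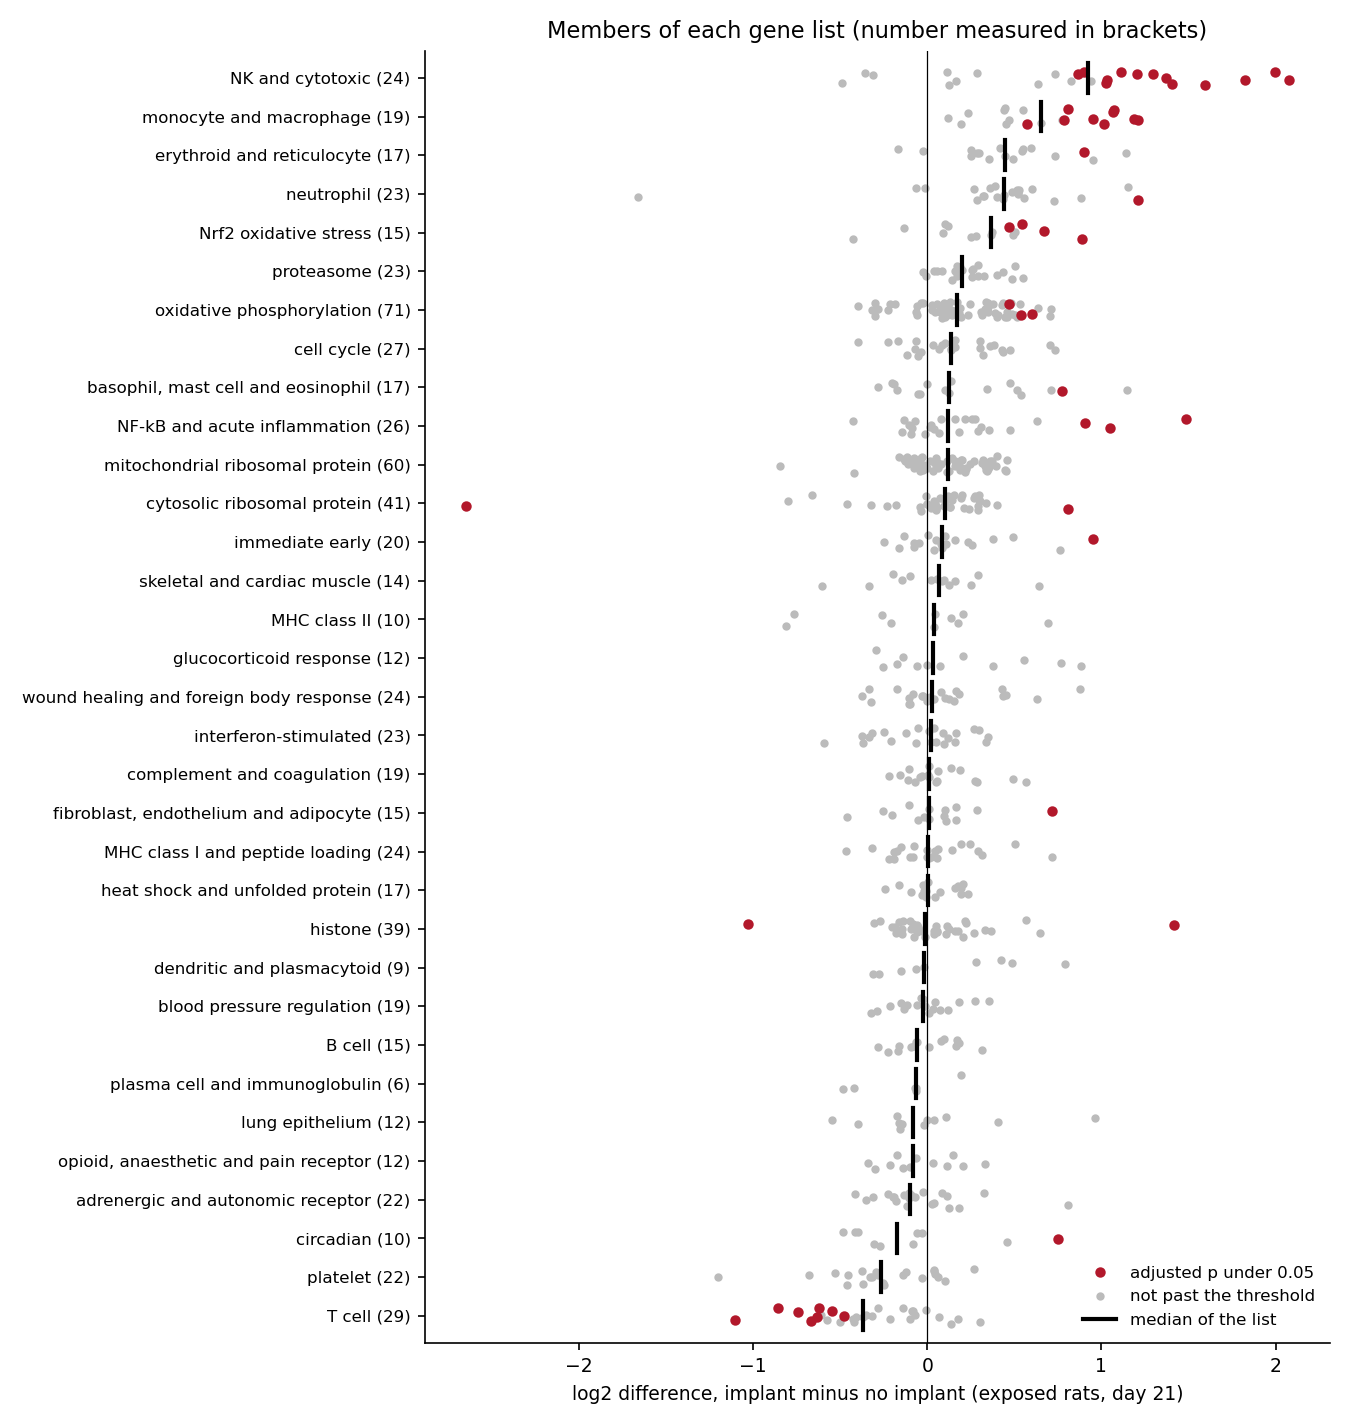
Log2 difference, implanted minus not implanted exposed rats on day 21, of every measured member of 33 gene lists, with the number measured in brackets. Red points passed at an adjusted p under 0.05, grey points did not, and the black bar is the median of the list, which is 0.92 for NK and cytotoxic genes, 0.65 for monocyte and macrophage genes and -0.37 for T cell genes.

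Monocyte and macrophage genes were higher as a group. All 19 measured members had positive differences, 9 passed, against 1.05% of all genes passing higher, and the median was 0.65, against 0.02 over all genes. The mean level of the list was 6.79 to 7.52 in implanted rats and 6.14 to 6.72 in the others. Adgre1, a macrophage surface receptor, measured 6.36, 6.42, 5.79 and 5.46 against 4.61 to 5.30 (median 4.81) and rose by 1.19 ± 0.21 (adjusted p = 0.000425). Cx3cr1, the fractalkine receptor found on patrolling monocytes and NK cells, measured 7.47, 8.20, 6.83 and 7.20 against 5.85 to 6.73 (median 6.25) and rose by 1.07 ± 0.25 (adjusted p = 0.0113). Both groups were apart for each of these genes. The Fc receptors Fcgr3a (1.21 ± 0.27; adjusted p = 0.00815) and Fcgr1a (1.01 ± 0.25; adjusted p = 0.0193) rose as well, and Fcgr3a is also made by NK cells and neutrophils. Nr4a1 rose by 0.95 ± 0.24 (adjusted p = 0.0292). Named after their values were seen, Cd68 (0.79), Clec4a3 (1.07), Klf4 (0.81) and Spi1 (0.57) were the other members that passed. The general monocyte markers Csf1r (0.65 ± 0.19; adjusted p = 0.0624) and Cd14 (0.44 ± 0.22; adjusted p = 0.423) did not pass. These calls rest on few rats: 1 member passed without implanted replicate 2, 3 without implanted replicate 1, 4 without the rat PEP_D21 replicate 4, 5 without PEP_D21 replicate 1, 6 without PEP_D21 replicate 6, 2 without array weights and 1 with only the 10 arrays in the fit. The same settings gave 12 to 14 cytotoxic genes with 1 rat left out, 11 without array weights and 6 with only the 10 arrays.

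In the list of genes under the control of Nrf2, the factor that switches on antioxidant enzymes, 13 of 15 measured members were higher and 4 passed, where 7216 of 13586 genes tested were higher and 1.05% passed higher. Gpx1, which reduces peroxides with glutathione, rose by 0.67 ± 0.14 (adjusted p = 0.00497), and Gclm, a subunit of the enzyme that starts glutathione synthesis, by 0.54 ± 0.14 (adjusted p = 0.0243). Nqo1, a quinone reductase, rose by 0.89 ± 0.23 (adjusted p = 0.0307) and Taldo1, of the pentose phosphate pathway, by 0.47 ± 0.12 (adjusted p = 0.025). The groups overlapped for Gpx1, Nqo1 and Taldo1. Under other settings of the fit, Nqo1 did not pass in 9 of 20, Gclm and Taldo1 in 8 of 21 each and Gpx1 in 3 of 21. The mean level of the list was 7.06 to 7.13 in the implanted rats and 6.69 to 6.88 in the others. Among 71 genes of oxidative phosphorylation, 57 were higher and 3 passed, against the same 1.05% (Cox8a by 0.60 ± 0.14, Cox4i1 by 0.47 ± 0.11 and Atp5mk by 0.54 ± 0.14), with a median of 0.17. The median was 0.20 for the proteasome, where 21 of 23 were higher and none passed. Erythroid genes had a median of 0.45, and Xk, a red cell membrane protein, passed at 0.90 ± 0.21 (adjusted p = 0.014). The mean level of the erythroid list was 7.75 to 7.98 in the implanted rats against 7.16 to 7.84, and that of the neutrophil list 5.80 to 6.08 against 5.20 to 6.07. Whether the shares of these cells have a part in the redox and mitochondrial values was not tested.

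Of the other blood cells, 20 of 23 neutrophil genes had positive differences, with a median of 0.44, and Fcgr3a alone passed. Over all genes, 1.05% passed higher and 0.42% lower. The lowest member of the neutrophil list was Ceacam1, an adhesion receptor, at -1.66 ± 0.48 (adjusted p = 0.0643). Fcar, the receptor for immunoglobulin A on myeloid cells, was not on the list and was named after its values were seen; it rose by 0.92 ± 0.21 (adjusted p = 0.0101). Platelet genes tended lower, 16 of 22 with a median of -0.27, and none passed; Ppbp, a platelet chemokine, was at -1.20 ± 0.41 (adjusted p = 0.147). Yet Mpig6b, an inhibitory receptor of platelets and megakaryocytes that was not on the list, fell, with values of 8.70, 8.02, 8.87 and 8.63 against 9.36 to 9.76 (median 9.72), a difference of -1.08 ± 0.29 (adjusted p = 0.0351). Slc6a4, the serotonin transporter of platelets and named after its values were seen, had a difference of -1.03 ± 0.27 (adjusted p = 0.0351). Both genes had no overlap between the groups. Under other settings of the fit, Mpig6b did not pass in 12 of 21 and Slc6a4 in 11 of 21. Gata2, a factor of basophils, mast cells and progenitors, passed at 0.77 ± 0.19 as 1 of 17 genes of its list. Lpl, lipoprotein lipase, passed at 0.71 ± 0.17 as 1 of 15 genes of fibroblasts, endothelium and fat cells, at low levels of 2.75, 3.35, 2.11 and 1.59 against 1.67 to 2.10 (median 1.73). The single calls of Gata2 and Lpl stand beside the same 1.05%.

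Several lists had no calls. None passed among 24 genes of wound healing and the foreign body response, 12 targets of the glucocorticoid receptor, 23 interferon-stimulated genes, 22 adrenergic and autonomic receptor genes, 19 genes of blood pressure regulation, 12 opioid, anaesthetic and pain receptors, 17 heat shock genes, 24 MHC class I genes or 10 MHC class II genes. Over all genes tested, 1.05% passed higher and 0.42% lower, so a list of this size can have no call at that share alone. The medians of these lists lay between -0.10 and 0.04. The opioid, anaesthetic and pain receptors were low, with mean levels of 2.04 with and 2.09 without an implant. Blood pressure genes averaged 2.62 and 2.64, and olfactory receptor genes 1.43 and 1.42. Under other settings the median ran from -0.298 to 0.021 for the former and from -0.288 to 0.013 for blood pressure genes. For wound healing it ran from 0.004 to 0.305. No calls at such levels do not show that these genes stayed the same. Of 20 immediate early genes, Nr4a1 passed, and of 10 circadian genes Bhlhe40, a repressor of the clock, at 0.75 ± 0.18 (adjusted p = 0.0179). None of the 21 miRNA genes with a probe set passed. Of 1186 olfactory and vomeronasal receptor genes, the receptors of the nose, 1 passed.

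Several further rises were named by size. Clic5, an intracellular chloride channel protein, measured 6.04, 6.34, 5.50 and 6.11 against 3.06 to 5.25 (median 4.42) and rose by 1.57 ± 0.26 (adjusted p = 0.000143). Tspan8, a tetraspanin, rose by 1.93 ± 0.38 (adjusted p = 0.00212), though implanted replicate 4, at 7.13, lay below the highest of the other rats, at 7.36. Serpinb6a, an inhibitor of serine proteases, rose by 1.47 ± 0.37 (adjusted p = 0.0248) with overlap of the groups, and so did the histone variant gene H2al2l (1.42 ± 0.33; adjusted p = 0.0137). Another histone gene, Hist2h2aa2, fell by 1.03 ± 0.28 (adjusted p = 0.0399), and these were the only ones of 39 histone genes to pass. Over all genes, 1.05% passed higher and 0.42% lower. Under other settings of the fit, Hist2h2aa2 did not pass in 11 of 21, Serpinb6a in 7 of 21 and H2al2l in 6 of 20.

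The largest falls were of another kind, with a few rats far apart from the rest. Ctrb1, the digestive enzyme chymotrypsinogen B, measured 10.85, 2.998, 2.55 and 3.40 in implanted replicates 1 to 4 and 9.75 to 10.97 (median 10.09) in the other exposed rats. Implanted replicate 1 was therefore at the level of the rats without an implant, and the difference of -4.91 ± 1.11 (adjusted p = 0.0103) came from the 3 others. Over all 69 arrays the values of this probe set fell into a lower range, 2.52 to 4.78, and an upper range, 9.24 to 11.14, with no array between. In the lower range were 3 of 4 implanted and 0 of 6 other exposed rats, 1 of 4 implanted and 0 of 6 other air rats, and 4 of the 49 arrays of earlier days. Ly6cl1, of the Ly6 family of surface proteins, also had 2 ranges, 1.52 to 3.84 and 6.52 to 9.14. All 4 implanted exposed rats, at 2.15, 2.44, 2.71 and 2.04, and none of the 6 others, at 6.52 to 7.92 (median 7.01), were in the lower one, and the difference was -4.74 ± 1.14 (adjusted p = 0.0174). The lower range also held all 4 implanted air rats, 1 of 6 other air rats and 14 of 49 arrays of earlier days, so that it was not particular to implanted rats.

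Rps16, which encodes a ribosomal protein, measured 2.45, 2.02, 2.77 and 2.43 against 4.62 to 5.51 (median 5.04) and differed by -2.65 ± 0.47 (adjusted p = 0.000348). It is represented by 1 of 2 probe sets of that symbol, and values of the other are not given here. Arrays without an implant also reached such levels, as in exposed replicate 5 of day 1 (2.07) and air replicate 5 of day 13 (2.32). In air on day 21 the groups overlapped, at 2.85 to 3.48 with an implant against 2.82 to 5.79. Of 41 cytosolic ribosomal protein genes Rps16 was the only one to pass lower, against 0.42% of all genes. Rpl24 passed higher (0.81 ± 0.15), against 1.05% of all genes. Ly6g6c, another gene of the Ly6 family, fell, with values of 9.57, 7.89, 9.49 and 8.04 against 10.68 to 11.79 (median 11.19) (difference -2.37 ± 0.50; adjusted p = 0.00476). Smaller falls were those of Spmap2l, a sperm microtubule protein (-1.39 ± 0.26), Slc2a4, the insulin-dependent glucose transporter (-1.27 ± 0.34), Hand2, a transcription factor of heart development (-1.14 ± 0.22), Snn (-1.12 ± 0.21), Slc4a4, a sodium bicarbonate transporter (-1.07 ± 0.22) and Gprin3 (-1.07 ± 0.24). Of these, the groups overlapped for Slc2a4 only. Under other settings of the fit, Slc2a4 did not pass in 11 of 21 and Gprin3 in 5 of 21, while Spmap2l passed in all 21.

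Probe sets without a gene symbol here made up 203 of the 418 that passed, among them the 4 with the smallest p. Probe set 17883171 measured 10.25, 10.05, 10.35 and 10.26 in the implanted rats against 7.51 to 8.25 (median 8.04) in the others, a rise of 2.22 ± 0.24 (adjusted p = 8.6e-09). Over all 69 arrays 7 lay in an upper range of 10.05 to 10.46: all 4 implanted exposed rats and 3 of the 4 implanted air rats, and none of the 61 arrays from rats without an implant, of any day. Probe set 17795972 put the same numbers of rats in its upper range, 6.23 to 7.55, and rose by 2.93 ± 0.32 (adjusted p = 8.6e-09). Implanted air replicate 1 was the array apart in both, at 8.23 and 3.48. Probe set 17792068 measured 3.22, 5.22, 3.002 and 4.35 against 1.08 to 2.21 (median 1.30) and rose by 2.43 ± 0.32 (adjusted p = 1.88e-06), but differed by 0.20 in air (adjusted p = 0.921). Its difference between the arms, 2.23, was among those with the smallest adjusted p of that test, 0.148. Probe set 17791895 rose by 3.04 ± 0.40 (adjusted p = 1.88e-06) and differed by 2.16 in air (adjusted p = 0.00232). Probe set 17792100 rose by 3.10 ± 0.42 (adjusted p = 2.35e-06), with implanted air replicate 1 at 1.28, but 2 of the 49 arrays of earlier days were also in its upper range. In the other direction, probe set 17825122 measured 0.64, 0.99, 0.91 and 1.29 against 3.70 to 5.19 (median 4.57) and fell by 3.58 ± 0.57 (adjusted p = 5.88e-05). Its lower range, 0.64 to 1.7, also held 3 of 4 implanted air rats and 8 of the 49 arrays of earlier days, so that it was not particular to implanted rats.

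**Figure D3:**
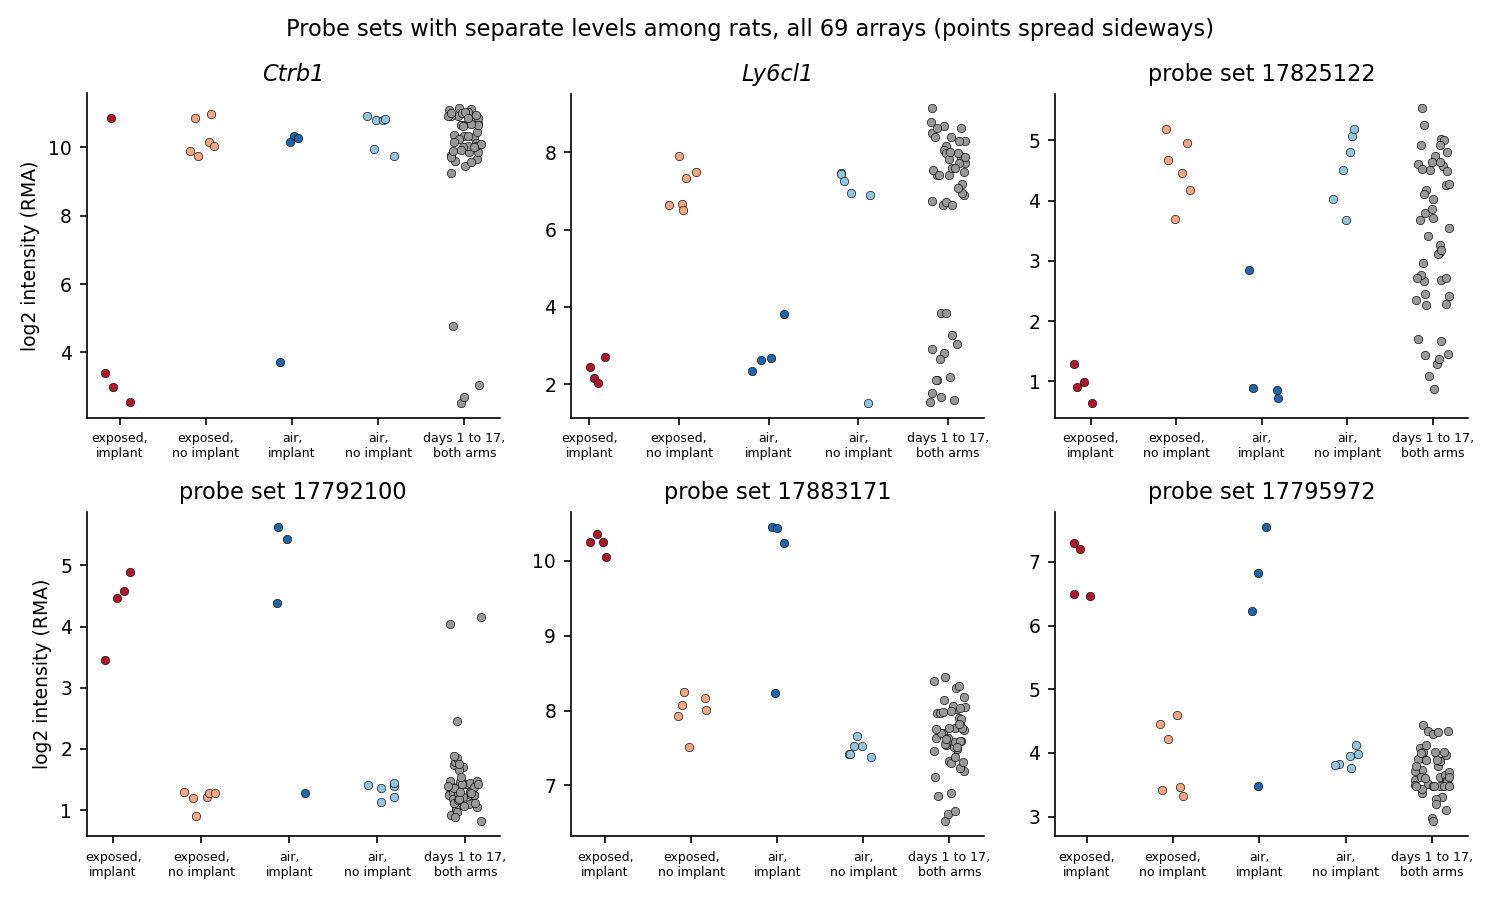
Log2 intensity (RMA) of 6 probe sets on all 69 arrays, as the 4 groups of day 21 and all arrays of days 1 to 17 together. Each point is an array, spread sideways for sight only. Ctrb1 and Ly6cl1 have separate upper and lower ranges in several groups, and probe sets 17883171 and 17795972 are high in all 4 implanted exposed rats and in 3 of 4 implanted air rats.

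The same contrast in the air rats went the same way for most of these probe sets. There, 160 probe sets passed (0.468%), 73 higher and 87 lower. Of them 70 had also passed in the exposed rats, all in the same direction, which is 16.7% of the exposed and 43.8% of the air calls. Of the 418 exposed calls, 389 (93.1%) had the same direction in air, against 58% of all probe sets tested, and the median ratio of the air to the exposed difference was 0.567. Read from the other side, 96.2% of the air calls had the same direction in the exposed rats, with a median ratio of the exposed to the air difference of 0.684, so that each comparison was the larger one among its own calls. The count in air was 138 without implanted air replicate 1 and lowest, at 66, without implanted air replicate 2.

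By gene group, 3 of the 24 cytotoxic genes passed in air, all higher, against 0.272% of all genes, with a median of 0.49. Klrc1 measured 5.49, 5.18, 5.23 and 5.46 against 2.91 to 3.81 (median 3.50) and differed by 1.90 ± 0.28 (adjusted p = 2.91e-05), close to its exposed value. Ccl5 differed by 1.15 ± 0.19 (adjusted p = 0.000413) and Gzmm by 0.85 ± 0.17 (adjusted p = 0.00304). Gzma measured 5.17, 4.55, 4.47 and 4.64 against 3.60 to 4.49 (median 4.02), a difference of 0.68 ± 0.29 that did not pass (adjusted p = 0.417). In T cell genes 5 of 29 passed lower in air, against 0.213% of all genes, with a median of -0.33, among them Trat1 (-0.99 ± 0.17), Ubash3a (-0.70 ± 0.14) and Cd3d (-0.99 ± 0.19; adjusted p = 0.00213), the last of which had not passed in exposed rats. No monocyte gene passed in air, where their median was 0.26, and no Nrf2 gene, where it was 0.18. Ly6cl1 differed by -3.48 ± 1.17 in air without passing (adjusted p = 0.216), with 1 air rat without an implant in the lower range.

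Whether the implant difference depended on exposure was tested by the difference between the arms. No probe set passed, with a smallest adjusted p of 0.148, and 1799 had an unadjusted p under 0.05, so that no gene can be said to respond to the implant in exposed rats alone. The difference between arms was 1.39 ± 0.41 for Gzma (adjusted p = 0.57), 1.18 ± 0.32 for the integrin gene Itgad (adjusted p = 0.502), which rose by 1.09 ± 0.23 in exposed and was at -0.08 ± 0.23 in air rats, 0.10 ± 0.38 for Klrc1 and -0.12 ± 0.24 for Trat1. By the rule for named genes, which keeps genes with 1 symbol, a group mean of at least 4 and a difference between arms of at least 1.5-fold and is no ranking over all probe sets, the others were Cd300c2l1, an immune receptor gene (1.15 ± 0.32), Arrdc2 (0.68 ± 0.20), Tppp, a tubulin-binding protein (1.16 ± 0.33), Mrpl40, of the mitochondrial ribosome (0.94 ± 0.25), and, in the other direction, the MHC class II gene RT1-Db2 (-0.77 ± 0.29), the metallothionein gene Mt1f (-0.98 ± 0.35), Ccdc124 (-0.87 ± 0.26), Adnp2 (-0.73 ± 0.23) and Flad1, of FAD synthesis (-0.65 ± 0.20). Each has an adjusted p between 0.464 and 0.79. Intervals of this width leave room for sizeable differences between the arms.

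**Figure D4:**
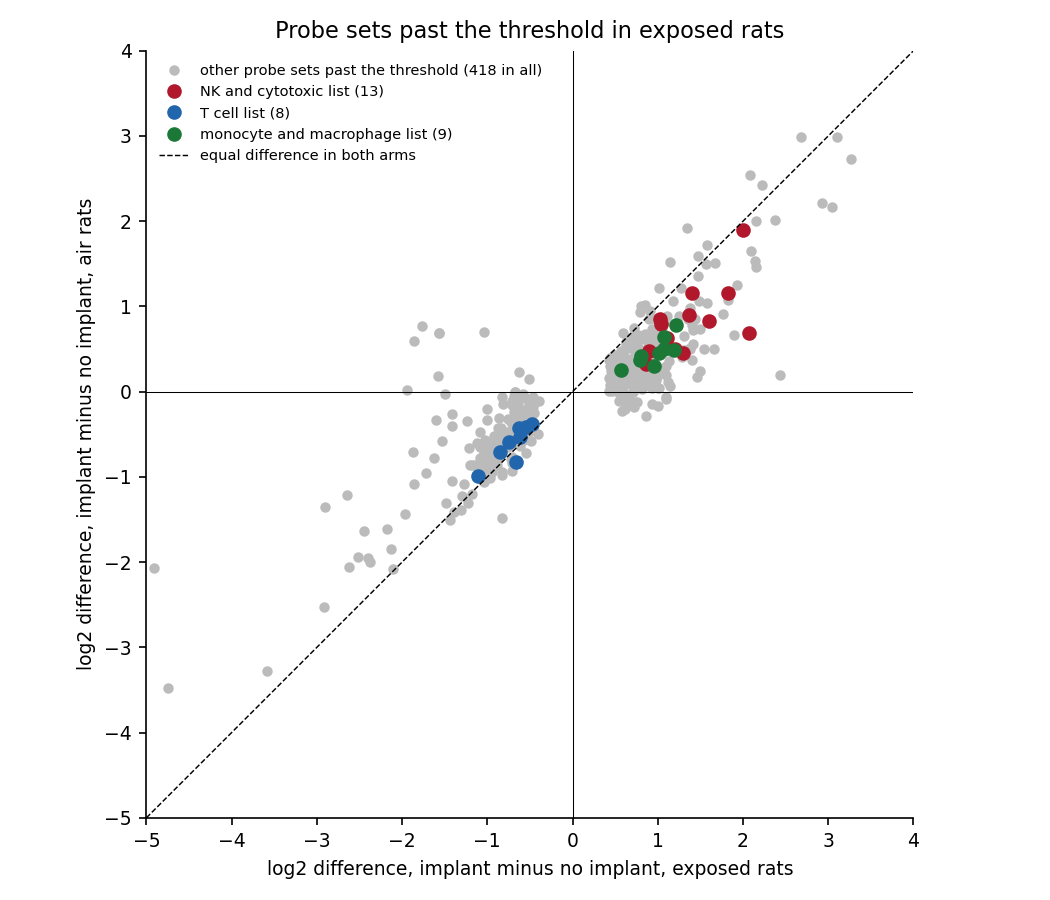
Log2 difference, implanted minus not implanted, in exposed rats (horizontal axis) and in air rats (vertical axis) for the 418 probe sets that passed in exposed rats, 1 point each. Coloured points are members of the NK and cytotoxic (13), T cell (8) and monocyte (9) lists, and the dashed line marks equal differences; 389 points have the same sign on both axes.

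Blood of exposed rats without an implant had also been taken on days 1, 5, 9, 13 and 17, which gives 31 arrays in all to set the implanted rats against. For 9 of the 24 cytotoxic genes all 4 implanted rats lay above all 31, against 0.236% of all genes: Ccl5, Gzma, Gzmk, Klrc1, Ncr1, Nkg7, Prf1, Tbx21 and Sh2d1b, the last of which had not passed. Klrc1, for example, reached at most 4.81 in the 31 arrays, against at least 4.94 in the implanted rats. T cell genes were different. Trat1 averaged 6.54 on day 1 and 7.42 on day 21 without an implant, and 6.30 with one. Satb1 averaged 9.67, 10.19 and 9.45 in that order, and Ubash3a 5.31, 6.003 and 5.17. For Trat1, Satb1 and Ubash3a the implanted rats of day 21 thus stood near the level of rats at the start of exposure. Daily means of the other T cell genes are not given here. No T cell gene had all 4 below all 31, which held for 0.0294% of all genes. Gpx1 averaged 10.58 on day 1, 9.77 on day 21 and 10.39 in the implanted rats, and 12 of the 31 arrays were at or above the lowest implanted value. Array quality differed between days as well. The lower quartile of an array was 1.54 to 1.74 in the exposed rats of day 1. On day 21 it was 1.42 to 1.51 in implanted and 1.41 to 1.49 in other exposed rats. Age, time in the chamber and array quality move with the day, and their part was not tested.

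**Figure D5:**
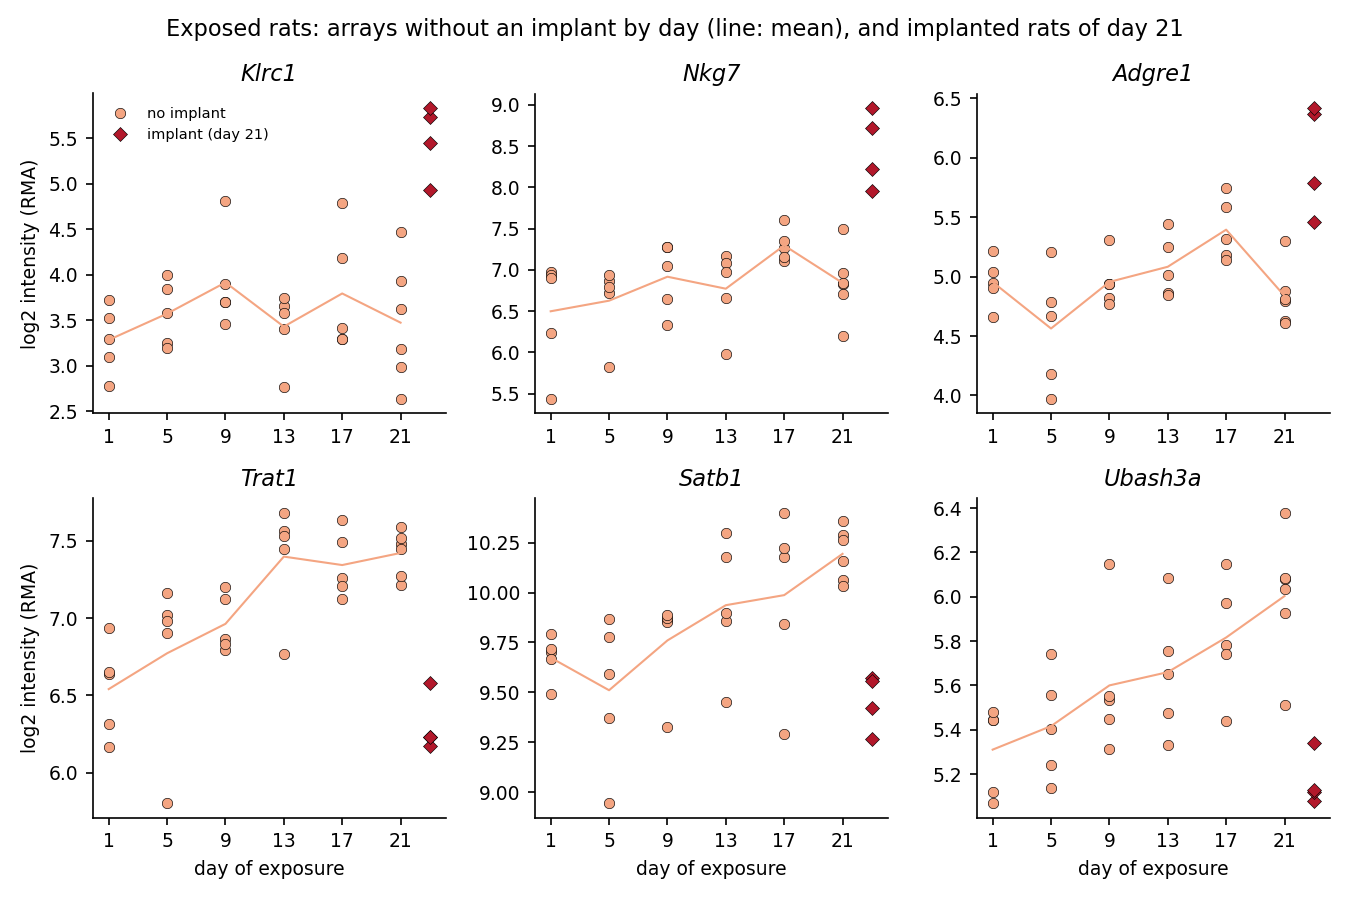
Log2 intensity (RMA) of 6 genes in exposed rats by day of exposure. Circles are the 31 arrays without an implant and the line joins their daily means, and diamonds are the 4 implanted rats of day 21, drawn to the right of that day. Klrc1 and Nkg7 are above all circles in the implanted rats, while Trat1, Satb1 and Ubash3a are near the levels of day 1.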

How the data were processed

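RNA from whole blood was hybridised to Affymetrix Rat Gene ST 2.1 arrays. The deposited values are on a log2 scale: per the submitters' processing notes, the authors used the oligo package in R 3.4 with RMA, which corrects background, normalises by quantiles and summarises probes to probe sets. RMA makes the arrays share a distribution of probe values, so a shift of all genes cannot be seen. Arrays carry no read depth; their number limits the precision. Of 36685 probe sets, 14824 had 1 gene symbol, 829 several and 21032 none in the platform annotation, and 14670 of the first were found in RefSeq. A gene was the probe set of its symbol with the highest mean; of 207 genes with several probe sets tested, 79 had differences of opposite sign.

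All 69 arrays entered a fit of 14 group means in limma 3.58.1 (R 4.3.3, data.table version 1.17.8), with array weights, moderated variances and Benjamini-Hochberg adjustment within each contrast, after 2509 probe sets with a variance under 0.05 were left out. Array measures were compared by exact permutation tests (SciPy 1.17.1). Named genes were the 12 largest rises and 12 largest falls past the threshold with a higher group mean of at least 4. Added to these were the 4 list members with the lowest p in each list, markers of cell types, and at most 5 genes per direction for the difference between arms. Other genes that passed in the exposed rats are marked as chosen after their values were seen. The members, lists and tests were chosen with earlier results of these data known. The scripts were checked on simulated data. Other settings tried were the weights, the filters, the arrays in the fit, the scaling, covariates and each array left out. Replicate numbers are shared between groups but were not used as pairs.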

Additional observations from a re-analysis of the deposited data

Results flagged for a closer look

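In all, 198 sets of values were examined, each from 1 exposed group and from 1 gene, 1 gene list level or 1 array measure. Of these, 17 had 1 array far from the others by Dixon's criterion, and chance alone gives about 1 in 20. Among the implanted rats, Ctrb1 measured 10.85 in replicate 1 against 2.55 to 3.40 in the other 3, which puts that rat at the level of the rats without an implant. Trat1 was highest in the same rat, at 6.58 against 6.17 to 6.23. In implanted replicate 2, Snn was low at 4.10 (others 5.14 to 5.35) and Klrb1b high at 4.69 (others 4.39 to 4.42), and in replicate 4 Klre1 was high at 2.94 (others 1.56 to 1.74).

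Among the 6 exposed rats without an implant, several cytotoxic genes had 1 rat apart. Gzma was 4.89 in replicate 3 against 3.44 to 3.97, and Kir3dl1 was 3.20 in that rat against 1.44 to 1.85. Klri2 was 2.71 in replicate 1 against 0.73 to 1.34, and Prf1 was 7.64 in replicate 6 against 8.06 to 8.23. Replicate 6 was also low for Cd3e, at 8.50 against 8.74 to 8.87, and for Ceacam1, at 8.59 against 9.32 to 9.72. In replicate 1, Serpinb6a was 3.91 against 5.60 to 6.19 and Lpl 2.10 against 1.67 to 1.79. The remaining values were H2al2l at 2.69 in replicate 2 (others 3.47 to 3.69), Mpig6b at 9.36 in replicate 3 (others 9.67 to 9.76), Skap1 at 6.65 in replicate 4 (others 7.10 to 7.32) and Cox8a at 8.32 in replicate 5 (others 8.63 to 8.79).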

How the results depend on the processing

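The count of 418 probe sets (241 higher, 177 lower) became 99 (63, 36) without array weights, 70 (32, 38) with only the 10 arrays of the comparison, 190 (98, 92) with the 20 arrays of day 21, 1027 (535, 492) with a mean of at least 4 in place of the variance filter, and 2571 (1050, 1521) at 1.5-fold without regard to p. Median centring gave 507 (389, 118), cyclic loess 495, the lower quartile as covariate 545, no variance filter 436, an intensity trend 428, and leaving out the 4 arrays of weight under 0.5 gave 447. With 1 rat left out in turn the count was 202 to 456 (121 to 291 higher, 81 to 165 lower). In air, 160 became 32 without weights and 59 with the 20 arrays, and 66 to 188 with 1 rat left out (66 without Air_D21T replicate 2, 96 and 93 without Air_D21 replicates 3 and 5). For the difference between arms the count was 0 except for 1 probe set without Air_D21T replicate 2 and 1 without PEP_D21T replicate 3. The cause of these changes was not tested.

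Replicate numbers did not pair the exposed groups: same-numbered rats had correlations of -0.044, 0.026, 0.031 and 0.018 in their deviations, and 1 of 4 correlated best with its own number. The replicate block gave 284 probe sets (173, 111) and 151 in air.

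Of 93 genes followed, 76 passed, and all 76 kept their direction under every alternative that tested them; 11 passed under each (Ccl5, Gzma, Gzmk, Klrc3, Nkg7, Rps16, Satb1, Spmap2l, Trat1, Itga1 and Tbx21). Of the 11, Klrc3 and Itga1 were near the bottom of the scale in exposed rats without an implant. Cd8a, which had not passed, turned to -0.004 without PEP_D21T replicate 2, and with 1 rat left out in turn lay between that and 0.148. The cytotoxic list had 6 to 14 members past the threshold over all settings, the T cell list 2 to 16 and the monocyte list 1 to 12. The number of arrays limits what could pass: Ceacam1 at -1.66 and Ppbp at -1.20 did not, and the smallest difference that passed in exposed rats was 0.394.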
